A study of Rattus norvegicus with 19 samples.

Results

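Expression in the somatosensory cortex of rats given albumin together with blockers of the TGF-β receptors was compared with that in sham-operated rats, to describe what still differed from sham while the receptors were blocked. The members are the 6 arrays of the second animal set whose titles name these groups, 4 with albumin plus blockers and 2 sham, of 19 arrays in the series. All came from adult male Wistar rats and were taken at 24 h. In the albumin plus blockers group the cortex was perfused with artificial cerebrospinal fluid holding bovine serum albumin, SB431542 (100 µM), which inhibits the kinase of the type 1 receptor, and an antibody to the type 2 receptor (50 µg/ml). Albumin rats of the same set (3 arrays) were perfused with bovine serum albumin at 0.1 mM. The label of the blocker group gives no albumin concentration. The sham label names a sham operation and no perfusion, and no sham received the blockers, so effects of albumin that were left, of the blockers and of the perfusion cannot be told apart. The design text counts animals, so each array was taken as 1 animal. The 2 sham arrays limit the precision of every difference below.

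TGF-β binds its type 2 receptor, which recruits and phosphorylates the type 1 receptor, whose kinase then activates the SMAD proteins that carry the signal to the nucleus. Serum albumin, which is kept out of the brain by the intact blood-brain barrier, can enter cortical tissue when the barrier opens, and albumin taken up by astrocytes is known to engage this pathway. Astrocytes and microglia respond to injury with intermediate filament, chemokine and phagocytic genes, and a cortical operation alone can start such a response.

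Values are log2 signals of Affymetrix probe sets, 1 probe set per gene, and differences are group means on that scale with their limma standard error (SE). Array medians of set 2 were 6.05 to 6.18. Transcripts of cortical cells were abundant. Snap25, of the synaptic release machinery, was at 15.30 to 15.34 on the 4 albumin plus blockers arrays and at 15.26 and 15.33 on the sham arrays. Mbp, of myelin, was at 15.61 to 15.86 with albumin plus blockers and at 15.64 and 15.72 in sham. The cortical vesicular glutamate transporter Slc17a7 averaged 12.38 ± 0.47 with albumin plus blockers (SD, n = 4) and 12.28 in sham. These 3 markers, like other genes said below to lie outside the naming rule, were chosen after their values were seen. The 2 sham arrays differed from each other by at least 2-fold at 189 of 10329 genes (1.83%). The levels come from pieces of tissue, so fewer cells of a type and less RNA per cell cannot be told apart.

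No gene passed an adjusted p under 0.05 between albumin plus blockers and sham (0 of 10329, 0%, limma with Benjamini-Hochberg adjustment). At an unadjusted p under 0.05 there were 444 genes (4.3%), 289 above sham (2.8%) and 155 below it (1.5%). A fit of only the 6 arrays of the 2 groups called 2 genes, and one with array weights called 9. In the fit of all 9 arrays, albumin without blockers had 99 genes above sham (0.958%) and 38 below it (0.368%) at the adjusted threshold. Both comparisons use the same 2 sham arrays, so they are not independent of each other. Without regard to size, the 4 albumin plus blockers arrays all lay above both shams at 1195 genes (11.6%) and all below at 859 (8.32%). A difference of at least 2-fold without overlap was found at 60 genes (0.581%), of which 42 were higher (0.407%) and 18 lower (0.174%) with albumin plus blockers. With 1 sham array left out, this number was 227 without sham replicate 2 and 87 without sham replicate 1, and it was 138 without albumin plus blockers replicate 4 and 91 without replicate 1.

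The smallest p of any gene at least 2-fold different was that of Slc30a1, which exports zinc from the cell. Its signal was 6.08, 6.35, 6.24 and 6.15 with albumin plus blockers, 6.42, 6.23 and 6.05 with albumin, and 4.74 and 5.08 in sham. Every treated array was thus above both shams, and the albumin plus blockers arrays lay within the range of the albumin arrays. The difference from sham was 1.30 ± 0.15 (SE, n = 4 against 2; limma, unadjusted p = 1.8e-05, adjusted p = 0.118), a 2.46-fold higher signal, and that of albumin was 1.32 ± 0.15 (adjusted p = 0.0262). Mt2A, a zinc-binding metallothionein, had 12.61, 12.05, 13.42 and 11.17 with albumin plus blockers against 9.55 and 11.39 in sham. Here replicate 4 lay between the shams, and the difference was 1.85 ± 0.77 (limma, adjusted p = 1). It was 0.93 without sham replicate 1 and 2.77 without sham replicate 2. Mt1, another metallothionein, lies outside the naming rule. Its signal was 2.71 to 3.35 with albumin plus blockers and 2.88 and 2.94 in sham, too low to be tested.

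The promoters of Slc30a1 and Mt2A are shown here. Zinc is known to act on both genes through the metal response element (MRE), bound by the factor MTF1. The RefSeq sequences (assembly GRCr8) run from 250 bases before to 50 bases after the start, 5′ to 3′ on the gene's strand, with matches to TGCACNC or TGCGCNC on either strand in capitals. That of Slc30a1 is chr13:106021769-106022068 on the plus strand, with 2 matches, and that of Mt2A is chr19:10838659-10838958 on the minus strand, with 4 matches.
Slc30a1: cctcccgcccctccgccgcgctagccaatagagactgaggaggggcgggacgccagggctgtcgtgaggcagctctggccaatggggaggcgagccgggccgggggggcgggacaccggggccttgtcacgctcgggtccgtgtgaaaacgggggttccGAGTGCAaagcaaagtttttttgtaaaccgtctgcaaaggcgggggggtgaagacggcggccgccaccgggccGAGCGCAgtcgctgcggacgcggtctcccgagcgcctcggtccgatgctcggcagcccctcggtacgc
Mt2A: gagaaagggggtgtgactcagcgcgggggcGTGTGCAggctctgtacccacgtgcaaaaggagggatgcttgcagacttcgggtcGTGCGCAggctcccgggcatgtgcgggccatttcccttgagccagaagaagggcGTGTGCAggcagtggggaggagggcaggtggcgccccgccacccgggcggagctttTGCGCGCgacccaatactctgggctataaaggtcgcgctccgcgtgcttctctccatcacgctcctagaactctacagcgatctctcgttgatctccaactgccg
A match is a run of letters and no more. The search for these motifs allowed matches to overlap one another. They were present in 37.6% of the 8661 promoters of genes tested and in 25.0% of all 27457 promoters. Of the 38 promoters found for the 42 genes higher with albumin plus blockers, 10 held a match (26.3%). The AP-1 motif TGANTCA, also searched on both strands, was in 6 of these 38 (15.8%), in 4.48% of the promoters of genes tested and in 7.33% of all.

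Pik3r1 encodes the regulatory subunit p85α of PI3 kinase. It was at 7.57, 8.20, 8.15 and 7.56 with albumin plus blockers, at 8.11, 8.89 and 5.87 with albumin, and at 3.18 and 3.06 in sham. The sham values lie under log2 4, the floor below which a signal did not count as present, and all 7 treated arrays lie well above it. The difference was 4.75 ± 0.70 (limma, adjusted p = 0.22), and it rests on a single probe set.

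Ccl2, the chemokine that draws monocytes, had one of the largest differences. Its signal was 8.76, 9.29, 9.46 and 6.66 with albumin plus blockers, 10.97, 13.47 and 11.85 with albumin, and 2.52 and 4.71 in sham. The 3 groups did not overlap, with albumin plus blockers between the other two. The difference was 4.93 ± 0.99 (limma, adjusted p = 0.578) for albumin plus blockers and 8.48 ± 1.04 (adjusted p = 0.0265) for albumin. For albumin plus blockers it was 3.83 without sham replicate 1, which lay under log2 4, and 6.02 without sham replicate 2. Cxcl1, which attracts neutrophils, was at 2.46 to 2.52 with albumin plus blockers, at 5.15 to 8.09 with albumin and at 2.50 and 2.52 in sham, so it was under log2 4 with albumin plus blockers and in sham. Il6 (2.22 to 2.25) and Il1b (3.06 to 3.31) were also under log2 4 on every albumin plus blockers array, as on both shams. Of 16 chemokine and receptor genes tested, 3 lay without overlap above sham and 2 below it, against 11.6% and 8.32% over all genes, and 0 passed. The median difference was 0.04, against 0.02 over all genes tested. With albumin the median of that list was 1.22, but it varied between arrays. Relative to the sham mean it was 0.47, −0.06 and 1.88 on albumin replicates 1, 2 and 3. Cxcl1 passed the filter through the 3 albumin arrays alone, where it was high. Ccl19, a lymphoid chemokine, was among the lower ones, at 4.71 to 4.88 with albumin plus blockers and at 5.38 and 5.67 in sham (−0.75 ± 0.11, limma, adjusted p = 0.22).

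Genes of IL-1, TNF and NF-κB signalling were mostly a little above sham. Of 26 tested, 21 had a higher mean with albumin plus blockers, 6 without overlap, against 54.6% and 11.6% over all genes, and 0 passed. Their median difference was 0.22, and that of albumin 1.75. Tnfrsf12a, the receptor of the cytokine TWEAK, had 7.04, 7.96, 8.10 and 5.65 against 4.31 and 5.06 in sham (2.50 ± 0.83, adjusted p = 1, limma). Tnfaip6, a secreted hyaluronan-binding protein, had 8.59, 7.88, 8.19 and 7.76 against 6.53 and 7.32 (1.18 ± 0.30, adjusted p = 0.958), and Ripk1, a kinase of TNF receptor signalling, averaged 7.24 against 6.60 and 6.82 in the shams. None of these groups overlapped with sham. In the IL-6 and STAT3 list 17 genes were tested, with a median difference of 0.09 for albumin plus blockers and 0.77 for albumin, and 0 passed. Stat3, the transcription factor of that pathway, was at 10.06, 10.53, 10.55 and 8.98 with albumin plus blockers and at 8.79 and 9.26 in sham, an overlap through replicate 4. Its feedback inhibitor Socs3 was at 2.36, 2.25, 3.98 and 2.23 against 2.33 and 2.35, below the floor throughout, whereas albumin had 5.38, 7.65 and 6.03.

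**Figure D1:**
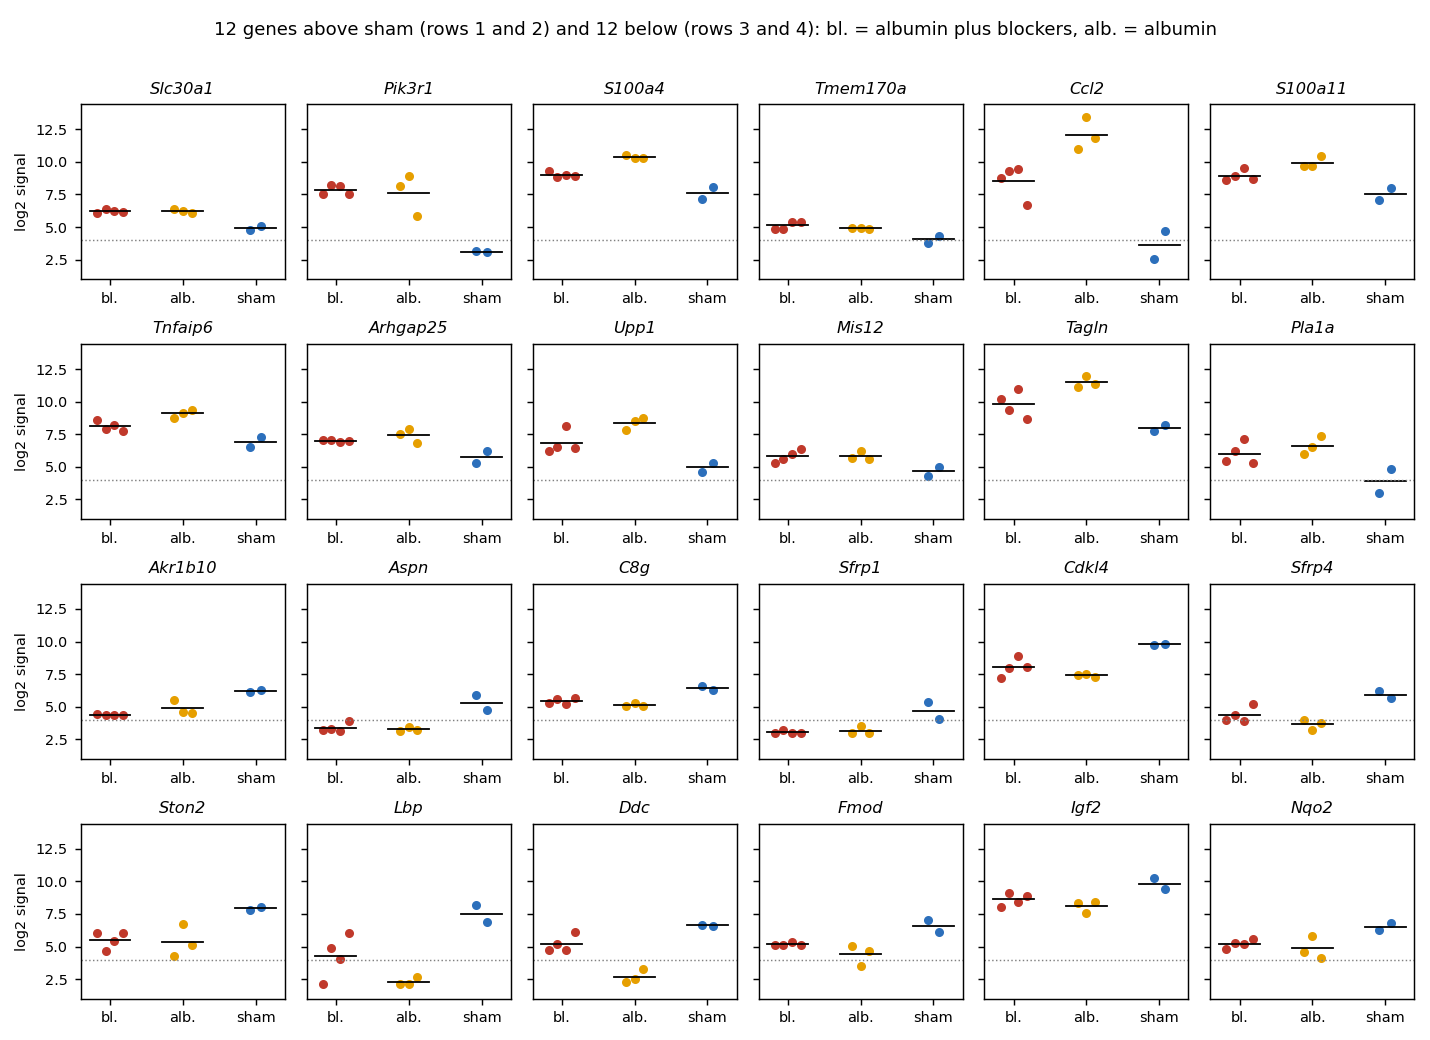
Log2 signal (y axis) of the 12 genes above sham and the 12 below it with the smallest p among genes at least 2-fold different without overlap, 1 point per array, for albumin plus blockers (4), albumin (3) and sham (2); bars mark group means and the dotted line log2 4. In each panel the albumin plus blockers points lie on one side of both sham points, as the rule for choosing them requires.

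Reactive astrocyte genes were above sham throughout. All 26 tested members of the 35 listed had a higher mean than in sham, 7 of them without overlap, against 54.6% and 11.6% over all genes. The median difference was 0.73 (1.60 for albumin). An unadjusted p under 0.05 (limma) was found for 9, against 4.3% over all genes, and 0 passed. Per array, the median of the list relative to the sham mean was 0.49, 1.0, 1.5 and 0.48 with albumin plus blockers, 1.22, 1.76 and 1.48 with albumin, and −0.10 and 0.10 in sham. Replicates 1 and 4 were about alike, and replicate 3 lay as high as the albumin arrays. The list median of albumin plus blockers was 0.46 without sham replicate 1 and 0.84 without sham replicate 2.

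Vim, vimentin, an intermediate filament of reactive glia, was at 12.12, 12.31, 12.40 and 11.70 with albumin plus blockers and at 11.60 and 11.42 in sham, without overlap (0.63 ± 0.20, limma, adjusted p = 1). Gfap, the astrocyte filament, was at 14.10, 14.42, 14.33 and 13.64 against 12.70 and 13.91, so sham replicate 2 lay within the treated range. Its difference of 0.82 ± 0.33 was 0.22 without sham replicate 1 and 1.42 without sham replicate 2. S1pr3, a receptor for sphingosine 1-phosphate, was at 8.50, 8.69, 9.12 and 7.33 against 6.38 and 7.32, where replicate 4 and sham replicate 2 nearly met (1.56 ± 0.52). The small heat shock protein Hspb1 had 10.72, 11.07, 11.57 and 9.57 against 6.20 and 9.59, and its difference of 2.83 ± 0.93 was 1.14 without sham replicate 1. The calcium-binding proteins S100a4 and S100a11 were higher without overlap. S100a4 had 9.26, 8.80, 8.97 and 8.90 with albumin plus blockers, 10.26 to 10.50 with albumin, and 7.16 and 8.07 in sham (1.37 ± 0.24, adjusted p = 0.397). S100a11 had 8.59, 8.89, 9.50 and 8.71, against 7.06 and 7.98 in sham (1.40 ± 0.35, adjusted p = 0.958).

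Phagocyte activation genes were mostly above sham, by an amount that varied with the sham array used. Of 24 tested among 31 listed, 20 had a higher mean than in sham, against 54.6% over all genes, and 0 passed. Without overlap 3 lay above sham and 1 below, against 11.6% and 8.32%. The median difference was 0.45, but it was 0.07 without sham replicate 1 and 0.89 without sham replicate 2. Spp1, osteopontin, was at 9.29, 9.91, 9.59 and 6.41 with albumin plus blockers and at 3.10 and 7.63 in sham. Lgals3, galectin-3, was at 9.57, 9.88, 9.69 and 8.37 against 6.71 and 8.55, and Gpnmb, a glycoprotein of lipid-laden phagocytes, at 9.98, 10.37, 10.59 and 9.06 against 7.48 and 9.39. In all 3 the lowest albumin plus blockers array was replicate 4, and it lay below sham replicate 2. Hmox1, heme oxygenase 1, which degrades heme and lies outside the naming rule, was at 8.51, 8.77, 9.46 and 3.24 with albumin plus blockers, at 10.59, 11.18 and 11.01 with albumin, and at 3.83 and 4.67 in sham. Replicate 4, like sham replicate 1, was thus under log2 4, and the other albumin plus blockers arrays were far above both shams. The difference was 3.24 ± 1.52 over 4 arrays (limma, adjusted p = 1) and 4.66 without replicate 4 (adjusted p = 0.0322). Plin2, which coats lipid droplets, was higher without overlap, at 7.12, 7.23, 7.63 and 6.89 against 4.63 and 6.17 (1.81 ± 0.67).

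Homeostatic microglia genes were near sham as a list (15 tested, median −0.03, 0 passed, against −0.22 for albumin). Members went both ways, 7 with a higher mean than in sham and 8 with a lower one, against 54.6% and 45.4% over all genes. Their differences ran from −1.63 for Olfml3 to 1.04 for Itgam. Without overlap 0 lay above sham and 1 below, against 11.6% and 8.32% over all genes. That 1 was Olfml3, at 2.67, 4.71, 2.92 and 4.62 with albumin plus blockers and at 5.54 and 5.17 in sham. P2ry12, the purinergic receptor of resting microglia, was at 9.38, 8.84, 8.07 and 9.40 with albumin plus blockers, at 7.62, 6.26 and 6.91 with albumin, and at 9.20 and 9.42 in sham. The albumin plus blockers values overlapped with sham and lay above all 3 albumin values, and the difference from sham was −0.38 ± 0.45. In the neutrophil and lymphocyte list 7 of 26 genes were tested and 0 passed. Their median of 0.28 was −0.01 without sham replicate 1 and 1.03 without sham replicate 2. S100a9, abundant in neutrophils, was at 7.20, 5.30, 9.14 and 6.72 against 3.35 and 5.78.

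Blood and vessel genes included a few above sham. Alas2, which makes heme in red cell precursors, was at 6.85, 6.47, 8.08 and 6.39 with albumin plus blockers and at 4.16 and 5.63 in sham, without overlap (2.05 ± 0.68, limma, adjusted p = 1). Hbb, β-globin, was at 14.27, 13.79, 14.99 and 14.31 against 13.31 and 13.49 (0.94 ± 0.35), also without overlap. Of 3 red cell genes tested, 3 had a higher mean with albumin plus blockers, against 54.6% over all genes, and 0 passed. The summed linear signal of the 8 red cell genes measured was 17782 to 36290 with albumin plus blockers and 13262 and 14489 in sham, and the part of blood in the other differences was not tested. Tagln, the smooth muscle protein transgelin, was at 10.21, 9.39, 10.94 and 8.68 against 7.76 and 8.24 (1.80 ± 0.56), and Angpt2, which loosens vessels, at 4.94, 6.07, 7.43 and 5.28 against 4.51 and 4.37 (1.48 ± 0.64). Abcb1a, the drug efflux pump of the blood-brain barrier, was below sham without overlap, at 8.70, 8.54, 8.13 and 8.89 against 9.04 and 9.27 (−0.59 ± 0.24, adjusted p = 1, limma). Its other probe set overlapped with sham, at 7.45 to 8.58 against 8.45 and 8.38 (−0.40). Of the 34 endothelial, pericyte and barrier genes tested, 19 had a higher mean with albumin plus blockers and 15 a lower one, against 54.6% and 45.4% over all genes. Without overlap 4 lay above sham and 3 below, against 11.6% and 8.32%. The median was 0.04 and 0 passed.

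The remaining 5 of the 12 genes named above sham were of mixed function. Arhgap25, a Rac GTPase-activating protein of leukocytes, was at 6.89 to 7.03 against 5.28 and 6.21 in sham (1.23 ± 0.32). Upp1, uridine phosphorylase, was at 6.19 to 8.11 against 4.60 and 5.33 (1.86 ± 0.53), and Pla1a, a phosphatidylserine phospholipase, at 5.27 to 7.13 against 2.98 and 4.82 (2.12 ± 0.66). Mis12, of the kinetochore, was at 5.33 to 6.38 against 4.33 and 5.03 (1.15 ± 0.33), and Tmem170a at 4.88 to 5.37 against 3.80 and 4.33 (1.06 ± 0.20). None of the 5 passed (limma, adjusted p = 0.48 to 1). Outside the naming rule, Med8, a Mediator subunit, missed 2-fold with tight arrays, at 6.50 to 6.69 with albumin plus blockers and 5.60 and 5.65 in sham (0.98 ± 0.12, adjusted p = 0.118).

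Genes of the meninges list, markers of the membranes that cover the cortex, were mostly below sham. Of 21 tested among 25 listed, 19 had a lower mean than in sham, 8 of them without overlap, against 45.4% and 8.32% over all genes. At least 2-fold lower without overlap were 4, against 0.174% over all genes, and 0 passed. The median difference was −0.65 (−1.82 for albumin), and it was −0.39 without sham replicate 1 and −0.79 without sham replicate 2. Per array, the list median was −1.24, −0.29, −0.93 and −0.25 with albumin plus blockers, −1.54, −2.46 and −1.38 with albumin, and 0.15 and −0.15 in sham. Replicates 2 and 4 were close to sham replicate 2, and replicates 1 and 3 were well below it. The summed linear signal of the 24 measured meninges genes was 12008, 22437, 17300 and 24731 against 36828 and 26208. How much meningeal tissue each piece of cortex held was not tested.

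Ptgds, the prostaglandin D2 synthase of meninges, was at 12.71, 13.70, 13.33 and 13.98 with albumin plus blockers, at 11.58 to 12.39 with albumin and at 14.68 and 14.05 in sham. The 3 groups did not overlap (−0.94 ± 0.37, limma, adjusted p = 1). Igf2, the growth factor, was at 8.07, 9.08, 8.45 and 8.87 against 10.24 and 9.42 (−1.21 ± 0.37), and Slc22a8, an organic anion transporter, at 5.89, 5.10, 3.73 and 6.40 against 7.50 and 6.76 (−1.85 ± 0.68). Aspn, asporin, was at 3.24, 3.27, 3.16 and 3.87 against 5.88 and 4.71 (−1.91 ± 0.32, adjusted p = 0.315), and Fmod, fibromodulin, at 5.11 to 5.32 against 7.02 and 6.11 (−1.39 ± 0.40). Sfrp1, a Wnt antagonist, was at 2.98 to 3.22 against 5.37 and 4.05 (−1.66 ± 0.33), and Sfrp4, the other secreted Frizzled-related protein, at 3.88 to 5.21 against 6.22 and 5.65 (−1.56 ± 0.39). Aspn and Sfrp1 were above log2 4 in the shams alone, through which they passed the filter.

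Aspn, Sfrp1 and Sfrp4 were not on the meninges list, and neither were the other genes named below sham. Lbp, which binds bacterial lipopolysaccharide, was at 2.15, 4.88, 4.08 and 6.02 with albumin plus blockers, at 2.14 to 2.64 with albumin and at 8.19 and 6.87 in sham (−3.24 ± 0.91, limma, adjusted p = 1). Ddc, the decarboxylase that makes dopamine and serotonin, was at 4.73, 5.19, 4.73 and 6.10 with albumin plus blockers, at 2.30, 2.49 and 3.26 with albumin and at 6.69 and 6.58 in sham. For Ddc the 3 groups were fully separate, with −1.45 ± 0.41 for albumin plus blockers and −3.95 ± 0.43 (adjusted p = 0.025) for albumin. Akr1b10, an aldo-keto reductase, was at 4.33 to 4.47 against 6.10 and 6.29 (−1.81 ± 0.26, adjusted p = 0.22), while its other probe set differed by 0.81 in the opposite direction. Ston2, an adaptor of synaptic vesicle endocytosis, was at 4.64 to 6.04 against 7.83 and 8.02 (−2.39 ± 0.65), and Cdkl4, a cyclin-dependent-kinase-like kinase, at 7.18 to 8.88 against 9.77 and 9.80 (−1.77 ± 0.38). C8g, the lipocalin chain of complement C8, averaged 5.44 against 6.62 and 6.27 (−1.0 ± 0.18), and Nqo2, a quinone reductase, averaged 5.22 against 6.28 and 6.79 (−1.32 ± 0.43).

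Genes of the blocked pathway itself were close to sham. Of 23 ligands, receptors and SMADs tested, 16 had a higher mean with albumin plus blockers, against 54.6% over all genes, and 0 passed. Without overlap 2 lay above sham and 1 below, against 11.6% and 8.32%. The median was 0.08, against 0.44 for albumin. Tgfb1 was at 6.19, 6.91, 6.23 and 5.26 with albumin plus blockers and at 6.24 and 6.02 in sham (0.02 ± 0.53). Tgfb2, another ligand, was at 8.35, 8.18, 8.82 and 8.71 with albumin plus blockers, at 9.69, 10.25 and 9.07 with albumin, and at 8.26 and 8.00 in sham (0.38 ± 0.31), and Tgfb3 was at 3.43 to 4.19 against 3.67 and 4.17. The type 1 receptor Tgfbr1 (−0.16 ± 0.35) and the signal carrier Smad3 (0.23 ± 0.40) overlapped with sham. Tgfbr2 was not read here, since no probe set named it alone.

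Among 19 tested target genes of TGF-β the median was 0.09 (0.32 for albumin), 3 lay above sham without overlap and 1 below, against 11.6% and 8.32% over all genes, and 0 passed. Smad7, the inhibitory SMAD that the pathway induces, was at 8.19, 8.05, 7.83 and 8.33 with albumin plus blockers and at 8.16 and 8.19 in sham (−0.08 ± 0.18). Skil, a SMAD corepressor, had 0.18 ± 0.23, and Id1, an inhibitor of basic helix-loop-helix factors, had 0.10 ± 0.17, both with overlap. Tgif1, another corepressor, was higher without overlap, at 7.32, 7.91, 7.45 and 7.32 against 6.83 and 6.84 (0.66 ± 0.26, limma, adjusted p = 1), with 1.45 ± 0.27 (adjusted p = 0.0494) for albumin. Smad1, which carries the signal of bone morphogenetic proteins, was at 9.75 to 9.82 against 9.49 and 9.44 (0.33 ± 0.18).

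Astrocyte genes of potassium, water and glutamate handling leaned below sham. Of 21 tested, 17 had a lower mean with albumin plus blockers, against 45.4% over all genes, and 0 passed. Without overlap 5 lay below sham and 2 above, against 8.32% and 11.6%. The median was −0.15, and −0.62 for albumin. Slc25a18, a mitochondrial glutamate carrier, was at 9.19, 9.53, 8.94 and 9.37 against 9.83 and 9.90 (−0.60 ± 0.23). The water channel Aqp4 (−0.12 ± 0.14), the connexin Gja1 (−0.10 ± 0.17) and the potassium channel Kcnj10 (0.31 ± 0.53) overlapped with sham. Another Aqp4 probe set lay below sham without overlap, at 10.07 to 10.69 against 10.95 and 11.01 (−0.58). The glutamate transporter Slc1a3 lay just below sham, at 13.59 to 13.62 against 13.82 and 13.70 (−0.15 ± 0.12). Slc1a2 lay just above it, at 8.42 to 8.80 against 8.27 and 8.41 (0.30 ± 0.22). The other probe sets of both transporters overlapped with sham.

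Neuronal lists were near sham, with 0 passing in each. The median was 0.02 over 25 neuron markers, −0.07 over 36 glutamate receptor and synapse genes, 0.04 over 26 GABA genes and −0.02 over 45 ion channel genes, against 0.02 over all genes tested. With albumin these medians were −0.11, −0.23, −0.17 and −0.21, and albumin replicate 2 stood apart from the other albumin arrays. Relative to the sham mean, the neuron list was at 0.03, −0.46 and −0.02 on the 3 albumin arrays and the glutamate list at 0.01, −0.57 and −0.15. Of the neuron markers 5 lay above sham without overlap and 0 below, against 11.6% and 8.32% over all genes. One of the 5 was Elavl2, an RNA-binding protein, at 11.42 to 11.53 against 11.27 and 11.26 (0.20 ± 0.10). The other Elavl2 probe sets, with differences of −0.11 and 0.15, overlapped with sham. Oligodendrocyte genes had a median of −0.07 over 21. Activity genes had 0.11 over 34 tested (1.02 for albumin). Without overlap 4 of them lay above sham and 3 below, against 11.6% and 8.32% over all genes. Klf6, a zinc finger factor of that list, was higher without overlap, at 9.58 to 10.20 against 9.18 and 9.46 (0.54 ± 0.18). Its other probe sets, with differences of 0.49 and 0.62, overlapped with sham. Nr4a2, of the same list, was lower with overlap, at 6.73 to 7.41 against 8.25 and 7.23 (−0.80 ± 0.32).

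**Figure D2:**
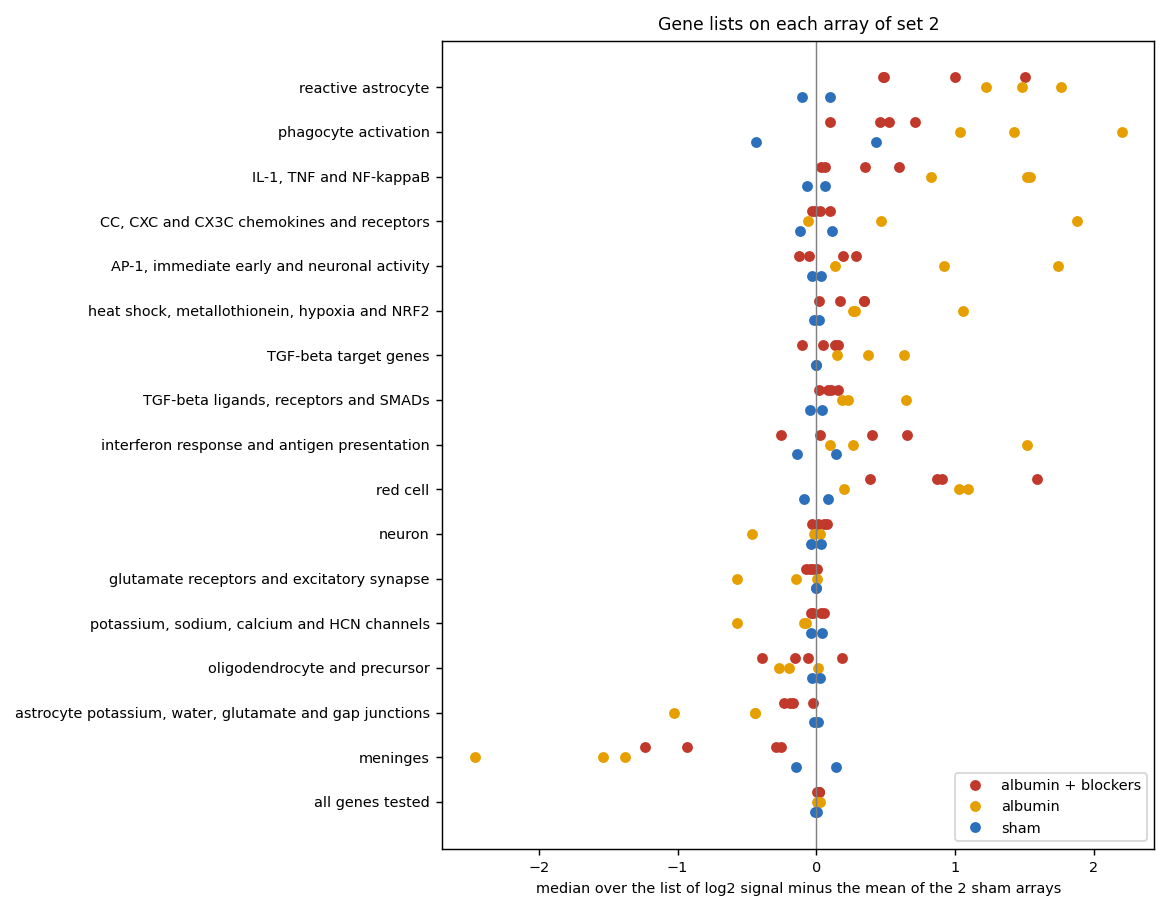
Median over the genes of a list of the log2 signal minus the mean of the 2 sham arrays (x axis), 1 point per array of set 2, lists down the page. Reactive astrocyte points of albumin plus blockers lie between 0.48 and 1.5, meninges points between −1.24 and −0.25, and neuron points close to 0.

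The direct contrast of albumin plus blockers with albumin, in the same fit, had 0 genes higher (0%) and 2 lower (0.0194%) at an adjusted p under 0.05. Rgs16, which shortens G protein signalling, was at 5.24, 5.25, 5.61 and 5.24 with albumin plus blockers, at 6.94, 6.52 and 6.65 with albumin and at 4.80 and 4.78 in sham. So it was lower than with albumin (−1.37 ± 0.14, limma, adjusted p = 0.0354) and still without overlap above sham (0.54 ± 0.15). Chdh, choline dehydrogenase, was at 3.22 to 3.46 with albumin plus blockers, at 4.29 to 4.37 with albumin and at 3.48 and 3.49 in sham, so it was below log2 4 with albumin plus blockers and in sham, and it passed the filter through the 3 albumin arrays alone, where it was high. This contrast was not recomputed under the alternative settings. For Slc30a1, Pik3r1 and Alas2 the difference between albumin plus blockers and albumin was −0.02 ± 0.13, 0.25 ± 0.62 and 0.07 ± 0.60 (SE, n = 4 against 3), and none passed. For Ccl2 it was −3.55 ± 0.87 (adjusted p = 0.155) and for S100a4 −1.36 ± 0.21 (adjusted p = 0.0796).

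**Figure D3:**
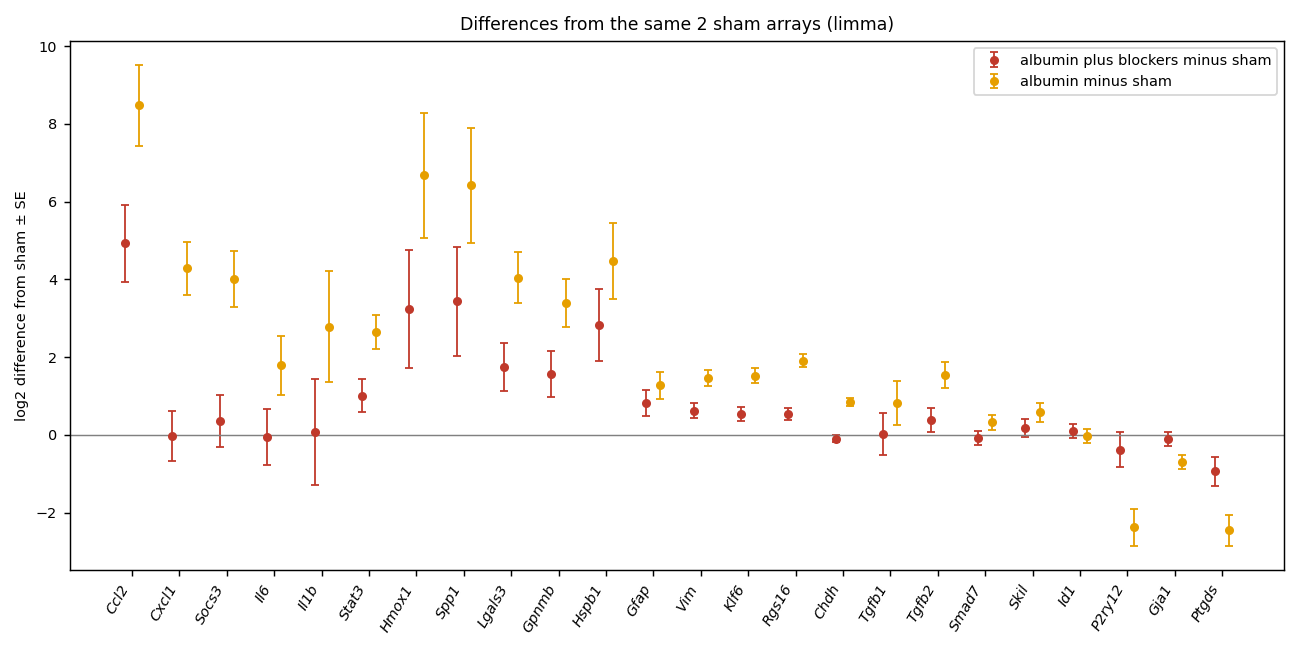
Log2 difference from the same 2 sham arrays (y axis, limma mean with its SE as bars) for albumin plus blockers (n = 4) and albumin (n = 3), gene by gene on the x axis. Cxcl1 and Socs3 lie near 0 with albumin plus blockers and at 4.28 and 4.01 with albumin, while Ccl2 lies at 4.93 and 8.48.

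Set 1, from other animals with a sham of its own, gave a separate reading of the 60 genes, with single arrays at 24 h and no test. Its agents were albumin (0.1 mM), sodium deoxycholate (DOC, 2 mM), a bile salt used to open the barrier, and TGF-β1 (10 ng/ml). Of the 42 genes higher with albumin plus blockers, 31 were at least 2-fold above the set 1 sham with albumin, 35 with DOC and 22 with TGF-β1, where 4.7%, 6.14% and 2.58% of all genes tested were. With all 3 agents 20 of the 42 were, against 1.56% of all genes, and 5 were so with none. The 3 differences use the same single sham array of set 1, so they are not independent of each other. The median differences of the 42 were 2.34, 2.41 and 1.07. Ccl2 was 7.29, 7.88 and 5.19 above the set 1 sham with albumin, DOC and TGF-β1, and S100a11 was 3.86, 3.39 and 2.73 above it. Pik3r1 had −1.0, −0.45 and −0.35, so Pik3r1 did not stand above the sham of set 1. Slc30a1 was under log2 4 on all 4 of these arrays, the only one of the 42 that was, so no difference could be read there.

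Few of the 18 lower genes were at least 2-fold lower in set 1, where their median differences with albumin, DOC and TGF-β1 were −0.33, −0.13 and −0.30. At least 2-fold below the set 1 sham were 2 with albumin, 2 with DOC and 1 with TGF-β1, where 2.55%, 4.94% and 1.27% of all genes were, and 16 were so with none. Of the 18, 10 were at or under log2 4 on all 4 set 1 arrays at 24 h, so a lower value could hardly be read there. Ddc was an exception, with −3.20, −3.45 and −3.24. Nat8f5 was another with albumin and DOC (−3.22 and −2.66), but not with TGF-β1 (−0.56). Cdkl4 went the other way, with 2.32, 0.72 and 1.90.

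**Figure D4:**
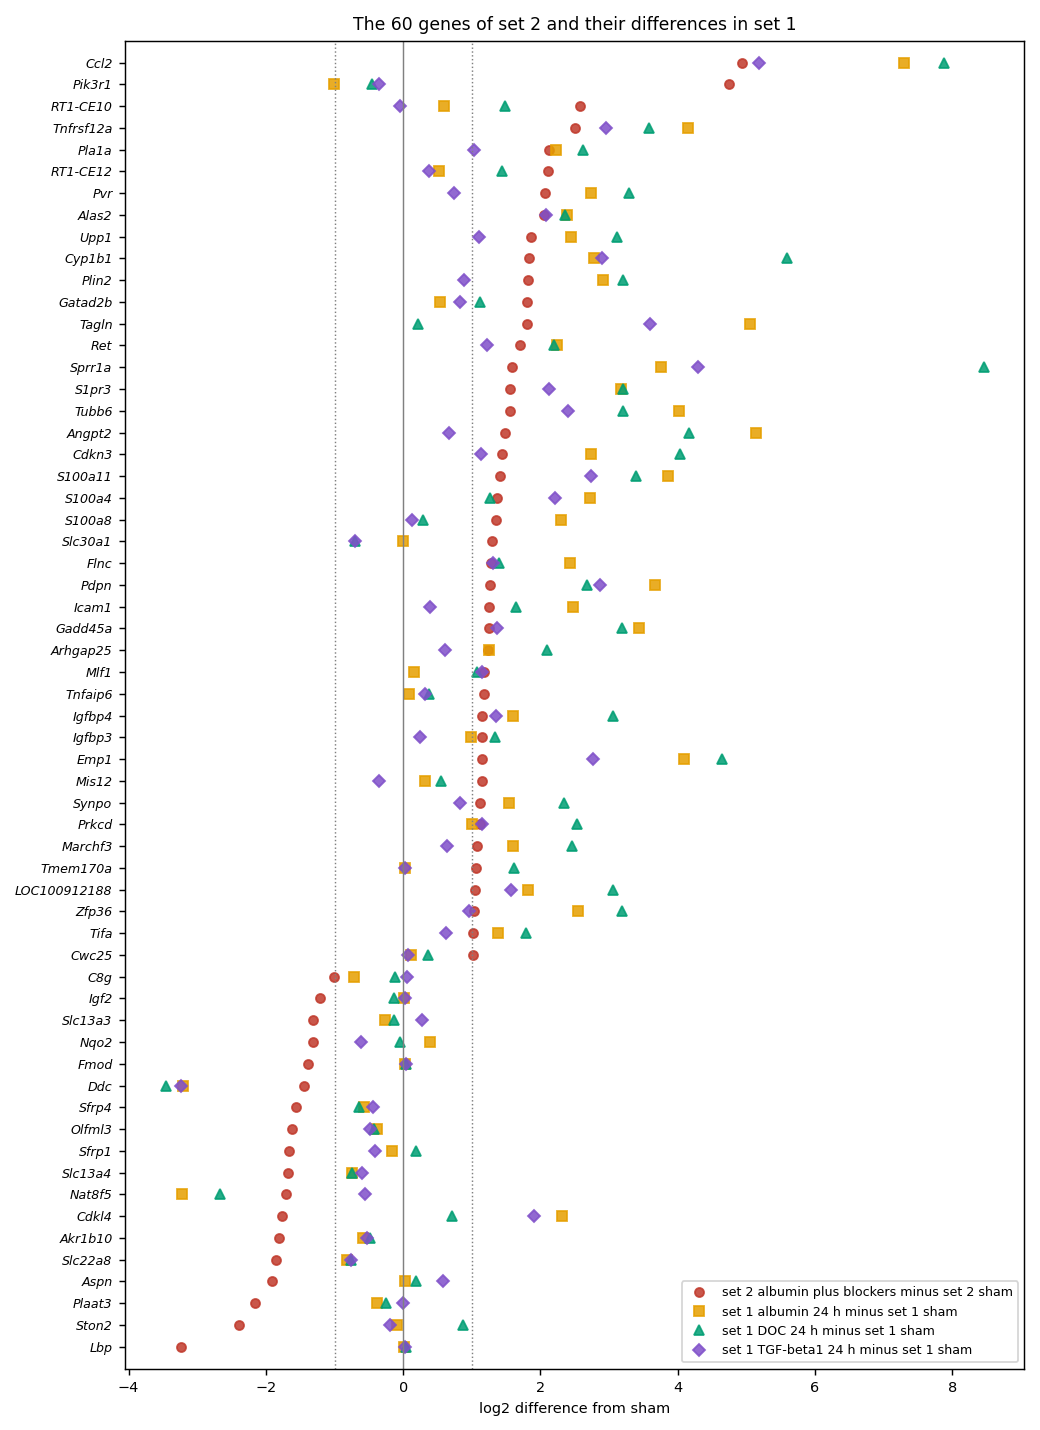
Log2 difference from sham (x axis) of the 60 genes at least 2-fold different without overlap between albumin plus blockers and sham, for that contrast of set 2 and for the single set 1 arrays of albumin, DOC and TGF-β1 at 24 h; dotted lines mark 2-fold. Most genes on the right in set 2 are also right of 0 in set 1, while most genes on the left lie near 0 in set 1.

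The 4 albumin plus blockers arrays were not alike. At least 2-fold above the sham mean were 87, 167, 246 and 80 genes, and at least 2-fold below it 82, 86, 95 and 31, against 331, 867 and 412 above and 184, 935 and 188 below on the albumin arrays. Of the 26 reactive astrocyte genes, replicate 3 had the highest of the 4 values at 16 and replicate 4 the lowest at 14, where over all 10329 genes replicate 3 was highest at 2424 and replicate 4 lowest at 2885. In the interferon and antigen presentation list (26 tested, median 0.10, 0 passed), replicate 3 was highest at 16 and replicate 1 lowest at 17. Of 2 class I histocompatibility genes among the 42, RT1-CE12 was at 9.08 to 10.06 with albumin plus blockers and at 9.07 and 5.87 in sham, and RT1-CE10 at 7.22 to 8.35 against 7.21 and 3.33. In both, sham replicate 2 alone was far below the rest, and values of such near-identical genes are uncertain, since a probe may not tell them apart.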

How the data were processed

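Total RNA of rat somatosensory cortex was hybridised to Affymetrix rat expression arrays. What the authors deposited is a log2 signal per probe set. The submitters' processing notes name GCRMA, which corrects background, normalises by quantiles and summarises probes, and its version is not given in the sources used here. Set 1 and set 2 differ in level, so comparisons were made within a set. Of 31099 probe sets, 57 were controls, 20826 named 1 gene, 436 several and 9780 none. Through Entrez identifiers 20758 of them took their symbol from the GRCr8 gene table, 2 did so through an accession, and 66 kept the platform's symbol. Each of 14217 genes was represented by the probe set naming it alone with the highest mean over 19 arrays. A gene was tested where log2 was above 4 on at least 2 of the 9 set 2 arrays (10329 genes).

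The 3 groups of set 2 were fitted together in limma (version 3.58.1, R version 4.3.3) by lmFit and a moderated two-sided test on 6 residual degrees of freedom. P-values were adjusted by Benjamini and Hochberg's method over the 10329 genes, with a threshold of 0.05. The fit was tested on simulated data. SE is the moderated standard error. Genes at least 2-fold different whose arrays did not overlap were counted without a test. Named were 12 genes in each direction, by smallest p among those since none passed, up to 3 members of each of 29 gene lists by smallest p, and 28 genes of the pathway, glia and cytokines, of which 1 is not reported here. The members and lists were chosen with earlier results of these data known. Set 1, with 1 array per condition, gave differences without a test. P-values measure only the spread between these arrays, part of which may be technical. Plots were made with Python 3.11.15 and matplotlib 3.10.9. Alternatives left out each array, changed the arrays fitted, the filter, the probe set, the variance prior, the array weights and the normalization, or added the replicate number as a block.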

Additional observations from a re-analysis of the deposited data

Results flagged for a closer look

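Some values of 1 array lay far from the other 3 of the albumin plus blockers group by Dixon's test for a single outlying value. Chance alone sets apart about 1 in 20 groups of this size, and 8 of the 106 results looked at were. Hmox1 was at 3.24 in replicate 4, against 8.51 to 9.46 in the others. Aspn was at 3.87 and Chdh at 3.22 in the same replicate, against 3.16 to 3.27 and 3.43 to 3.46. In replicate 3, Socs3 was at 3.98 (others 2.23 to 2.36), Rgs16 at 5.61 (others 5.24 to 5.25) and Fmod at 5.32 (others 5.11 to 5.13). In replicate 2, Sfrp1 was at 3.22 (others 2.98 to 3.01). The median of the striatum list relative to sham was 0.79 in replicate 2 and −0.14 to 0 in the others. The flagged gene values were all under log2 4 except those of Rgs16 and Fmod. For Hmox1 the other 3 arrays were far above it.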

How the results depend on the processing

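No gene passed between albumin plus blockers and sham with no filter on low values, a filter on a mean log2 above 5, other probe sets or their mean, a trend and robust prior, quantile normalization or centring of the arrays. Leaving out 1 array gave 0 to 1 genes past the threshold: Hmox1 without albumin plus blockers replicate 4, Cnpy3 without sham replicate 1, Akr1b10 without albumin replicate 1 and Pik3r1 without albumin replicate 3. With only the 6 arrays of the 2 groups 2 passed, Pik3r1 and Akr1b10 (both adjusted p = 0.00358, limma). With array weights 9 passed: Med8, Slc30a1, Pik3r1 and Anapc16 above sham, and Itgb4, Mxra8, Akr1b10, Arid3b and Ccl19 below it. Itgb4 passed the filter through the 2 sham arrays alone, where it was high. With the replicate block 1 passed, Hmox1 (4.50, limma, adjusted p = 0.0394). Same-numbered albumin plus blockers and sham arrays deviated from their group means with r = 0.001 and −0.136. With 2 shams the deviations of 1 mirror those of the other, so these r cannot tell whether the numbers mark a batch. The same-numbered pairs of albumin plus blockers with albumin had r = 0.223, 0.219 and 0.050, and those of albumin with sham 0.143 and 0.040. Differently numbered pairs of albumin plus blockers with albumin ran from −0.260 to 0.185. Whether the replicate numbers mark a batch was not tested. The cause of these shifts was not tested. The number of genes at least 2-fold different without overlap was 50 to 227 with 1 array left out, and between 43 and 59 of the 60 were among them. It was 206 at 1.5-fold and 26 at 3-fold, and 48 to 63 under the other settings. Of the list medians recomputed, 519 moved by less than the SD of the 4 albumin plus blockers arrays and 32 by more. Differences of several genes named as near sham changed sign. Quantile normalization gave Cxcl1 0.028 and Tgfb1 −0.044, centring gave Tgfb1 −0.014, and the mean of its probe sets gave Smad7 0.050. The block gave Il1b −0.85 and Tgfb3 0.18. With 1 array left out the values ran from −0.031 to 0.53 for Kcnj10, from −0.16 to 0.012 for Smad7, from −0.063 to 0.52 for Socs3, from −0.23 to 0.32 for Tgfb1, from −0.48 to 0.024 for Tgfb3, from −1.56 to 0.40 for C3, from −3.0 to 0.71 for Ttr and from −0.32 to 0.045 for Tgfbr1. With 2 shams, the arrays' number limits what can be called, and signals under log2 4 carry no order.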

Other observations

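In the lists not described above, 0 genes passed between albumin plus blockers and sham in limma. Of 31 tested genes of heat shock, metallothionein, hypoxia and NRF2, 21 had a higher mean with albumin plus blockers, against 54.6% over all genes, and the median difference was 0.24. It was 0.17 over 10 complement genes (C3 was at 6.20 to 7.02 with albumin plus blockers and at 6.29 and 8.25 in sham), 0.11 over 22 cell cycle genes, 0.07 over 39 matrix genes and 0.07 over 24 genes of PI3 kinase and growth factors. It was −0.06 over 26 genes of cholesterol and lipid synthesis, −0.06 over 22 glucocorticoid and clock genes and 0.11 over 6 striatum genes. Of the matrix genes 5 lay below sham without overlap and 0 above, against 8.32% and 11.6% over all genes. Mcm4, of the replication helicase, was at 7.97 to 8.63 with albumin plus blockers and at 7.56 and 7.63 in sham (0.71 ± 0.21, limma, adjusted p = 1). The choroid plexus list was read by Ttr alone, the thyroid hormone carrier of that tissue, at 4.98, 6.89, 5.80 and 4.01 with albumin plus blockers and at 4.71 and 8.42 in sham.

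Probe sets with no single gene name were looked at separately. Of 4611 tested, 28 were at least 2-fold higher with albumin plus blockers without overlap and 4 lower (0.694% in all). The probe set 1379859_at, chosen after its values were seen, was at 2.69 to 2.72 with albumin plus blockers, at 2.64 to 2.79 with albumin and at 8.82 and 8.98 in sham. The probe set 1396884_at, also chosen after its values were seen, was at 5.16 to 6.18 with albumin plus blockers, at 2.39 to 3.65 with albumin and at 2.41 and 3.48 in sham, so only the blocker group stood above the others.

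Of the 60 genes, 8 had another tested probe set. There were 9 of these, 7 differed in the same direction and 4 were also at least 2-fold different without overlap.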
